A study of Mus musculus with 12 samples.

Results

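Livers of mice fed a high-fat diet were compared with livers of mice fed a low-fat diet where both diets contained the same maple syrup extract. The comparison takes the 3 arrays of the high-fat MSX group minus the 3 arrays of the low-fat MSX group, 6 of the 12 arrays of the series, and covers all 22180 genes that the platform annotation names with 1 symbol. A gene with several probe sets was represented by its brightest, judged by the mean of the 12 arrays.

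All animals were male C57BL6 mice with no genetic change given in the labels, fed ad libitum for 12 weeks from 6 to 18 weeks of age. Low-fat MSX mice received 10% of energy from fat and high-fat MSX mice 45%, and both diets held 0.5% (w/w) of MSX, a food-grade extract of maple syrup enriched in phenols. Low-fat control and high-fat control mice ate the same diets with no extract and serve here as the diet contrast in 6 other arrays. The high-fat diet stands for diet-induced obesity in the series, and the labels give neither body weights nor the carbohydrate that the fat replaced. Total liver RNA was measured with 1 Affymetrix array per RNA sample, and values are the deposited log2 summaries of each probe set, so that a difference of 1 is a 2-fold difference.

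The liver makes fatty acids from sugar when dietary carbohydrate is plentiful. The transcription factors SREBP-1c, which insulin activates, and ChREBP, which responds to sugar, switch on the enzymes of this pathway, and unsaturated fatty acids in the diet lower SREBP-1c activity. Fatty acids that reach the liver can bind PPAR alpha, the nuclear receptor that switches on genes of fatty acid oxidation. Cholesterol synthesis is driven by the related factor SREBP-2 when cell sterol is low.

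The tissue label was checked with hepatocyte markers. Of 13 listed markers, 12 were measured, with means over the 12 arrays between 9.81 and 13.9 and a median of 12.7, against a median of 5.10 over all genes. Their differences between the MSX groups lay between −0.26 and 0.13. Array medians lay between 4.68 and 4.75 over the series. Over genes, arrays of the same MSX group correlated at 0.986 to 0.992 and arrays of different MSX groups at 0.985 to 0.992, so that arrays resembled each other as much across the diets as within a diet. In a principal component analysis of the 6 MSX arrays the first component (27.1% of the variance) placed low-fat MSX 3 at 33.3 and the other 5 arrays between −13.3 and 6.06, and the second (25.2%) placed high-fat MSX 3 at 33.6. Neither component separated the diets, and no array was left out of the values below unless this is said.

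No gene passed an adjusted p of 0.05 in limma between high-fat MSX and low-fat MSX (0 of 22180, 0%). The lowest adjusted p was 0.466. At an unadjusted p under 0.05 there were 1012 genes (4.56%), 529 with the higher mean on the high-fat diet (2.39%) and 483 with the lower (2.18%), where 1109 are expected if no gene differs. Only 15 genes had means more than 1 apart on the log2 scale, 7 higher and 8 lower on the high-fat diet. For what follows, values are therefore descriptions of these 6 arrays, and no gene or list is called higher or lower in the population they stand for.

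**Figure D1:**
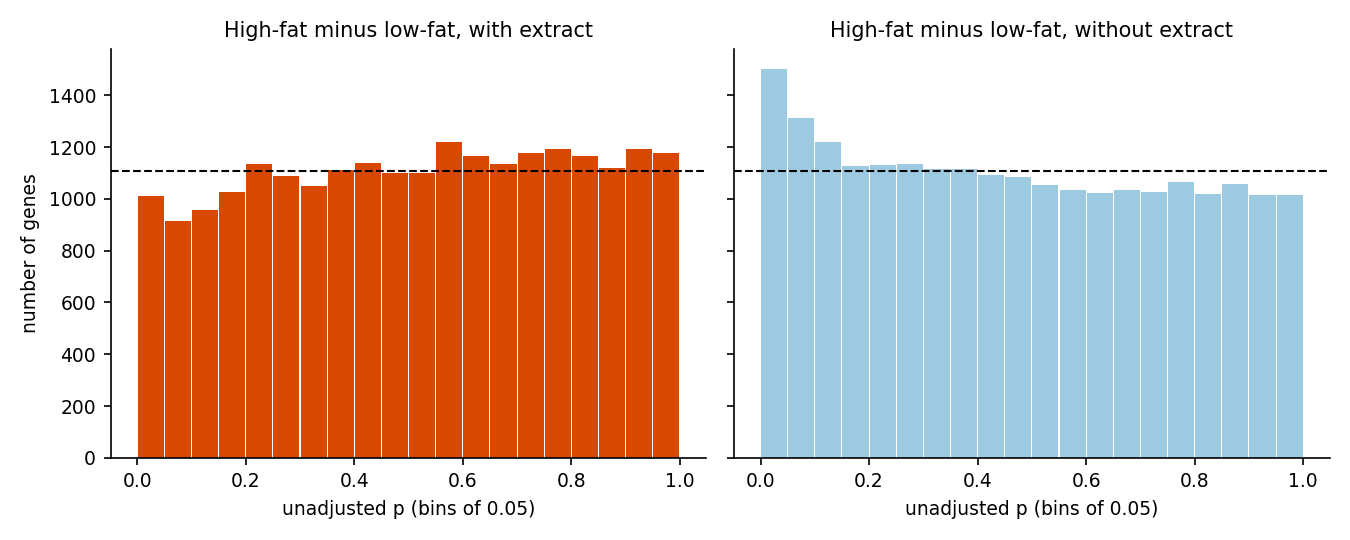
Number of genes (vertical axis) by unadjusted limma p in bins of 0.05 (horizontal axis) for high-fat minus low-fat with extract (left) and without extract (right), over 22180 genes each. The dashed line is the 1109 genes per bin expected if no gene differs. The lowest bin holds 1012 genes with extract and 1503 without.

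The precision of the comparison bounds what could have been missed. The median SE of a difference was 0.15, and the median 95% interval of a single gene reached 0.33 to either side of its estimate. For 21701 genes (97.8%) the whole interval lay between −1 and 1. A gene taken alone needed a difference of about 1.21 at the median SE to pass the adjusted threshold. Precision is limited by the number of arrays, and the smallest p that an exact two-sided permutation of 3 against 3 allows is 0.1. The p-values measure the spread between arrays that the labels call biological replicates.

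Of the 41 gene lists described, fatty acid synthesis had the median farthest from 0. All 15 listed genes were measured, and 13 of the 15 had a lower mean in high-fat MSX than in low-fat MSX, where 49.5% of all genes did. The 3 arrays of each diet did not overlap for 9 of the 15, each with high-fat MSX below, against 4.76% of all genes, and 10 of the 15 had an unadjusted p under 0.05 with a lower mean, against 2.18%. The median difference was −0.58 over the list and 0.00 over all genes. None of the 15 passed the adjusted threshold. Without 1 array at a time the median stayed between −0.67 and −0.52, and the count of 10 between 8 and 11.

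**Figure D2:**
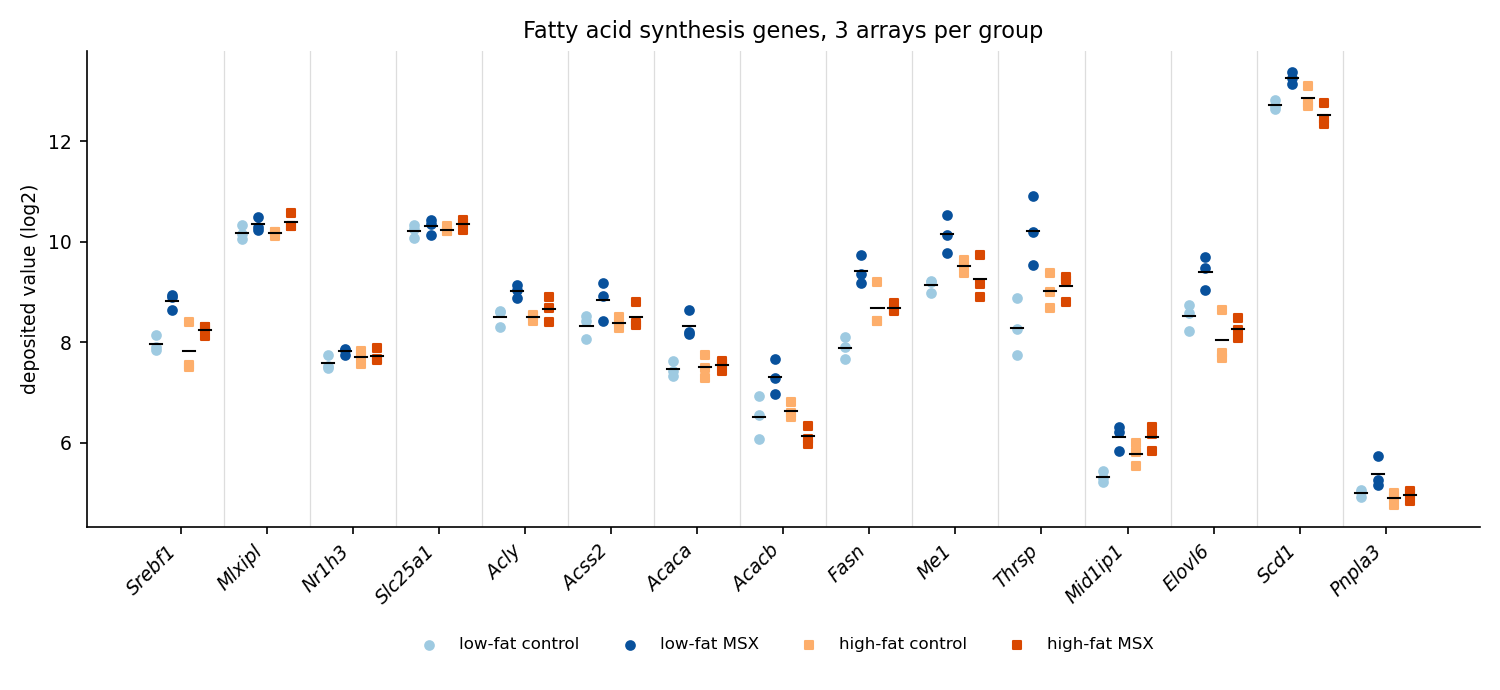
Deposited log2 value (vertical axis) of the 15 fatty acid synthesis genes (horizontal axis) in each of the 12 arrays, with bars at group means. For Acaca, Acacb, Fasn and Scd1 all 3 high-fat MSX arrays (dark squares) lie below all 3 low-fat MSX arrays (dark circles), and for Mlxipl and Slc25a1 the arrays of both groups overlap.

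Among the transcription factors of the pathway, Srebf1, which encodes SREBP-1c, read 8.90, 8.93 and 8.64 in the low-fat MSX arrays and 8.31, 8.12 and 8.30 in the high-fat MSX arrays. The high-fat MSX arrays all lay below the low-fat MSX arrays, and the difference was −0.58 (SE 0.20, limma adjusted p = 0.999). Mlxipl, which encodes ChREBP, had a difference of 0.05, and Nr1h3, the oxysterol receptor LXR alpha that switches on Srebf1, had one of −0.09. For both of these the diet groups overlapped.

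The enzymes that supply and extend the carbon chain came next. Acacb, the acetyl-CoA carboxylase at the mitochondrion whose product blocks fatty acid entry, read 6.97, 7.66 and 7.30 in the low-fat MSX arrays and 6.33, 6.08 and 5.98 in the high-fat MSX arrays. Its group means were 7.31 ± 0.35 and 6.13 ± 0.18 (SD, n = 3 each), a difference of −1.18 (SE 0.21, limma adjusted p = 0.466) or 2.27-fold. The difference exceeded the SD of either group, with the highest high-fat MSX array below the lowest low-fat MSX array. Acaca, the cytosolic acetyl-CoA carboxylase that commits carbon to fatty acids, read 8.17, 8.64 and 8.20 in the low-fat MSX arrays and 7.63, 7.60 and 7.43 in the high-fat MSX arrays, a difference of −0.78 (SE 0.16, limma adjusted p = 0.576). Fasn, the fatty acid synthase itself, read 9.37, 9.74 and 9.18 in the low-fat MSX arrays and 8.65, 8.79 and 8.62 in the high-fat MSX arrays, a difference of −0.74 (SE 0.21, limma adjusted p = 0.969). In both genes the high-fat MSX arrays were close to each other and below every low-fat MSX array.

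Upstream of the chain, Acly and Acss2 make acetyl-CoA from citrate and from acetate, and Slc25a1 exports citrate from the mitochondrion. Their differences were smaller, at −0.36, −0.33 and 0.04, and the diet groups overlapped for each of these genes. Me1, the malic enzyme that supplies NADPH for synthesis, read 10.14, 10.54 and 9.77 in the low-fat MSX arrays and 9.74, 8.90 and 9.16 in the high-fat MSX arrays. Its groups did not overlap, though high-fat MSX 1 lay only 0.034 below low-fat MSX 3, and the difference was −0.89 (SE 0.21, limma adjusted p = 0.944). Thrsp, a protein that promotes lipogenesis with its relative Mid1ip1, read 9.53, 10.19 and 10.91 in the low-fat MSX arrays and 9.30, 8.81 and 9.25 in the high-fat MSX arrays, a difference of −1.09 (SE 0.33, limma adjusted p = 0.977). Mid1ip1 had a difference of −0.01 with overlapping groups.

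At the end of the pathway, Elovl6 lengthens palmitate to stearate and read 9.48, 9.69 and 9.05 in the low-fat MSX arrays and 8.24, 8.48 and 8.09 in the high-fat MSX arrays, a difference of −1.14 (SE 0.24, limma adjusted p = 0.713). Scd1, the desaturase that turns stearate into oleate, read 13.26, 13.38 and 13.14 in the low-fat MSX arrays and 12.76, 12.44 and 12.36 in the high-fat MSX arrays, a difference of −0.74 (SE 0.14, limma adjusted p = 0.53). Pnpla3, a lipid droplet protein and target of SREBP-1c, read 5.17, 5.73 and 5.26 in the low-fat MSX arrays and 5.0, 4.85 and 5.04 in the high-fat MSX arrays, a difference of −0.42 (SE 0.15, limma adjusted p = 0.999). None of these 3 genes overlapped between the diets, and high-fat MSX was the lower group in each.

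The list level of an array, the median over the 15 genes of the value minus the 12-array mean of the gene, placed these values among all 4 groups. It was 0.39, 0.67 and 0.25 in low-fat MSX and −0.02, −0.12 and −0.05 in high-fat MSX. In low-fat control it was −0.10, −0.28 and −0.28 and in high-fat control 0.03, −0.13 and −0.16. The 3 low-fat MSX arrays were the highest of the 12, and the high-fat MSX arrays lay among the control arrays of both diets. In bulk liver, fewer cells of a type and less RNA per cell cannot be told apart, here and for each gene below.

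**Figure D3:**
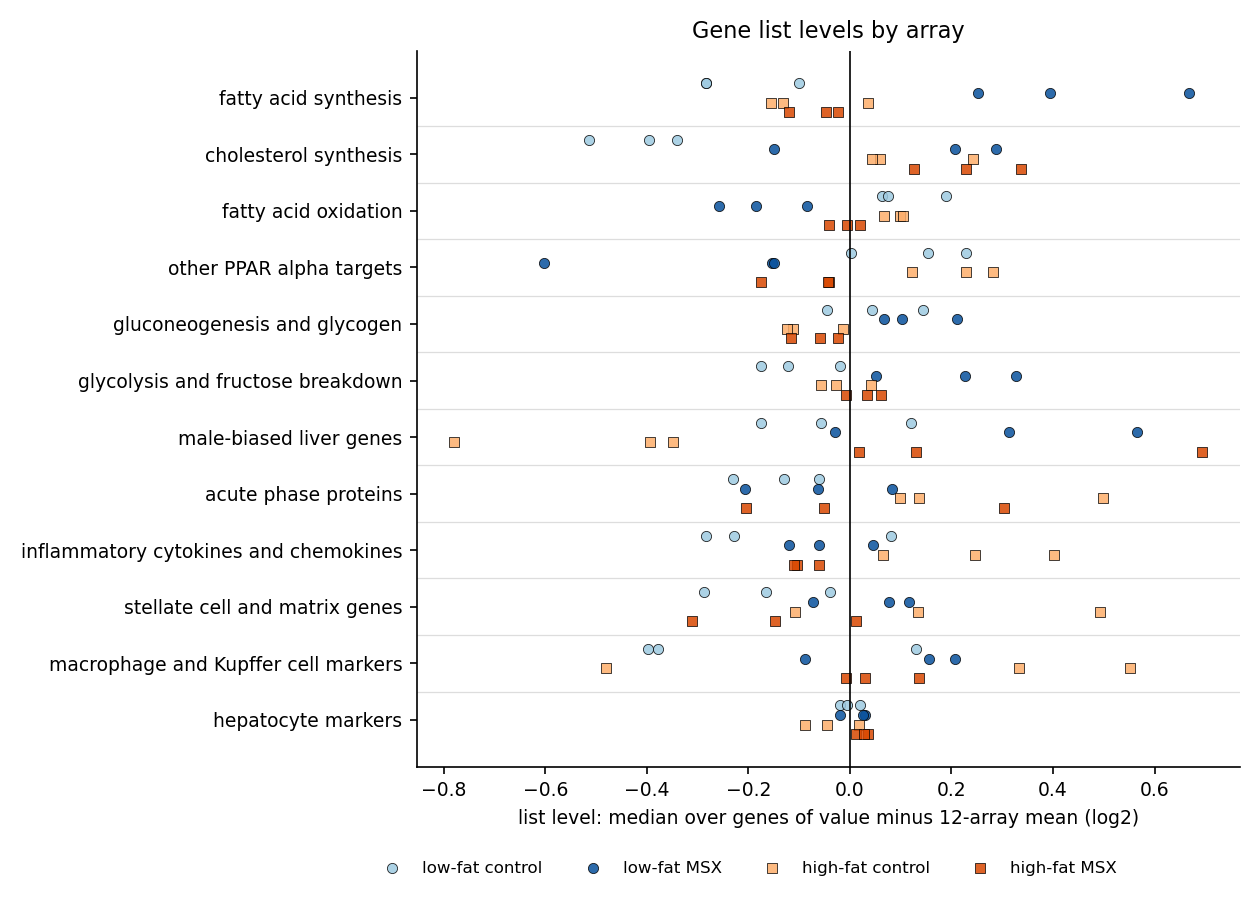
List level of each array (horizontal axis, log2) for 12 gene lists (vertical axis), with 3 arrays in each of the 4 groups. In the fatty acid synthesis row the low-fat MSX arrays run from 0.25 to 0.67 and the high-fat MSX arrays from −0.12 to −0.02, while in the hepatocyte row all arrays lie near 0.

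The same diet contrast without extract shares no array with the one described. There the median of the fatty acid synthesis list was 0.06, with 3 of 15 genes at an unadjusted p under 0.05, all with the higher mean on the high-fat diet, where 6.78% of all genes passed in either direction and 3.44% in this one. Fasn read 7.92, 7.66 and 8.10 in the low-fat control arrays and 9.19, 8.42 and 8.42 in the high-fat control arrays, a difference of 0.78 against −0.74 with extract. The difference between these diet differences was −1.53 (SE 0.29), with a limma adjusted p of 0.664. For Acacb it was −1.30, for Me1 −1.27 and for Thrsp −1.82, and no gene of the genome-wide test of this interaction passed the threshold (0 of 22180, lowest adjusted p 0.664, 1130 genes or 5.09% at an unadjusted p under 0.05, 2.67% above and 2.43% below 0). The values are therefore given side by side, and no diet difference is called particular to the extract.

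Elongases and desaturases overlapped with that list through Scd1 and Elovl6. Of 16 measured genes 5 had an unadjusted p under 0.05 and a lower mean in high-fat MSX, against 2.18% of all genes, and the median was −0.11. Fads2, the delta-6 desaturase of polyunsaturated fatty acids, read 12.17, 12.47 and 12.22 in the low-fat MSX arrays and 12.0, 11.76 and 11.83 in the high-fat MSX arrays, a difference of −0.42 (SE 0.13, limma adjusted p = 0.977) with no overlap. Fads1, the delta-5 desaturase, had a difference of −0.37 and Elovl2, an elongase of polyunsaturated chains, one of −0.30, both with overlapping arrays. Without low-fat MSX 2, high-fat MSX 2 or high-fat MSX 3 the count was 3. The median was −0.053 without low-fat MSX 2, −0.0587 without high-fat MSX 3 and −0.19 without low-fat MSX 3.

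Fabp5 and Lpin1, both of lipid handling, come from other lists. Fabp5, a fatty acid binding protein better known from skin and macrophages, read 6.90, 7.03 and 6.87 in the low-fat MSX arrays and 5.86, 6.27 and 6.19 in the high-fat MSX arrays. The groups were 0.60 apart at their nearest arrays, and the difference was −0.83 (SE 0.15, limma adjusted p = 0.466) with a 95% interval of −1.15 to −0.51. The other 3 probe sets with this symbol differed by −0.62, −1.51 and −1.50. Lpin1, a phosphatidate phosphatase of triglyceride synthesis that also acts as a coactivator of PPAR alpha with PGC-1 alpha, read 9.43, 10.53 and 10.87 in the low-fat MSX arrays and 8.55, 8.47 and 9.19 in the high-fat MSX arrays. It had a difference of −1.54 (SE 0.37, limma adjusted p = 0.944) or 2.90-fold, the farthest below 0 of the genes named here, and a wide spread within low-fat MSX, where array 1 lay 1.44 below array 3.

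Sugar breakdown feeds the same pathway. Of 16 listed genes of glycolysis and fructose breakdown 11 were measured. Of the 11, 9 had the lower mean in high-fat MSX, against 49.5% of all genes, and the median was −0.20. Pklr, the liver pyruvate kinase and a target of ChREBP, read 10.16, 10.82 and 9.87 in the low-fat MSX arrays and 9.76, 9.73 and 9.29 in the high-fat MSX arrays, a difference of −0.69 (SE 0.24, limma adjusted p = 0.999). Khk, the ketohexokinase that starts fructose breakdown, read 11.27, 11.35 and 11.06 in the low-fat MSX arrays and 11.01, 10.99 and 10.70 in the high-fat MSX arrays, a difference of −0.33 (SE 0.14, limma adjusted p = 0.999). Both had high-fat MSX below with no overlap. They were the 2 genes of the list at an unadjusted p under 0.05, where 2.18% of all genes had such a p and a lower mean. The count was 0 without low-fat MSX 2 or high-fat MSX 3, 1 without low-fat MSX 1 and 5 without low-fat MSX 3. The median was −0.11 without low-fat MSX 1 and −0.12 without low-fat MSX 2.

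Gluconeogenesis and glycogen genes, a list that mixes glucose output with glycogen storage, had a median difference of −0.23 over 14 measured genes. High-fat MSX lay below without overlap for 7 of the 14, against 4.76% of all genes, and 6 had an unadjusted p under 0.05 with a lower mean, against 2.18%. Ppargc1a, which encodes the coactivator PGC-1 alpha, read 7.54, 8.05 and 7.55 in the low-fat MSX arrays and 7.43, 6.50 and 6.98 in the high-fat MSX arrays, a difference of −0.74 (SE 0.22, limma adjusted p = 0.977). G6pc, the glucose-6-phosphatase that releases glucose, read 10.98, 11.21 and 11.85 in the low-fat MSX arrays and 10.68, 10.49 and 10.81 in the high-fat MSX arrays, a difference of −0.68 (SE 0.24, limma adjusted p = 0.999). Slc37a4, the transporter that carries glucose-6-phosphate to it, read 10.07, 10.10 and 10.10 in the low-fat MSX arrays and 9.65, 9.61 and 9.69 in the high-fat MSX arrays, and within each diet its arrays lay within 0.08 of each other.

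The difference of Slc37a4 was −0.44 (SE 0.15, limma adjusted p = 0.999). Pck1, which makes phosphoenolpyruvate, differed by −0.30, Fbp1, the fructose bisphosphatase, by −0.27 and Gys2, the liver glycogen synthase, by −0.31, each without overlap. For Pck1 the nearest arrays of the diets were only 0.0059 apart. The count of 6 was 2 without low-fat MSX 3 and 3 without high-fat MSX 2. Without extract the median of the list was −0.0952, with 5 of the 14 genes above 0. At an unadjusted p under 0.05 there were 3 with a lower mean, against 3.34% of all genes, and 1 with a higher, against 3.44%.

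Fatty acid oxidation genes lay the other way. Of 25 listed genes 23 were measured, and 22 of the 23 had the higher mean in high-fat MSX, where 50.5% of all genes did. The groups did not overlap for 11 of the 23, all with high-fat MSX above, against 4.68% of all genes, and 5 had an unadjusted p under 0.05 with a higher mean, against 2.39%. The differences were small, with a median of 0.17 and a largest value of 0.56, and none passed the adjusted threshold. The count of 5 was 3 without low-fat MSX 3 or without high-fat MSX 2.

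Ehhadh, the bifunctional enzyme of the peroxisomal pathway and a classic PPAR alpha target, read 10.31, 10.37 and 10.26 in the low-fat MSX arrays and 10.62, 10.83 and 10.98 in the high-fat MSX arrays, a difference of 0.50 (SE 0.15, limma adjusted p = 0.977). Crot, which exports shortened chains from the peroxisome as carnitine esters, read 11.85, 11.61 and 10.99 in the low-fat MSX arrays and 12.03, 12.04 and 12.04 in the high-fat MSX arrays, a difference of 0.56 (SE 0.18, limma adjusted p = 0.999). Its high-fat MSX arrays spanned 0.0126, whereas low-fat MSX 3 lay 0.62 below the next array of its group. Eci1, an isomerase for unsaturated chains in mitochondria, differed by 0.32, Slc25a20, the carnitine carrier of the inner membrane, by 0.27 and Pex11a, a peroxisome division factor, by 0.30, each without overlap. The list level was −0.26 to −0.08 in low-fat MSX, −0.04 to 0.02 in high-fat MSX, 0.06 to 0.19 in low-fat control and 0.07 to 0.10 in high-fat control, which made low-fat MSX the lowest of the 4 groups.

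Other targets of PPAR alpha had 14 of 17 measured genes with the higher mean in high-fat MSX, against 50.5% of all genes, and a median of 0.19. Cyp4a31, a fatty acid omega hydroxylase, read 8.55, 8.08 and 8.39 in the low-fat MSX arrays and 9.19, 9.19 and 8.94 in the high-fat MSX arrays, a difference of 0.77 (SE 0.16, limma adjusted p = 0.713), and every high-fat MSX array lay above the low-fat MSX arrays. Its sequence is close to those of other Cyp4a genes, and signal from these on its probes cannot be told apart. Acot1, a cytosolic acyl-CoA thioesterase, read 7.03, 6.87 and 7.10 in the low-fat MSX arrays and 7.39, 7.61 and 7.27 in the high-fat MSX arrays, a difference of 0.42 (SE 0.16, limma adjusted p = 0.999), against −0.72 without extract. Vnn1, a pantetheinase induced through PPAR alpha, differed by 0.58 without overlap, and these 3 were the genes at an unadjusted p under 0.05, where 2.39% of all genes had such a p and a higher mean.

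Cyp4a14, another omega hydroxylase, read 11.65, 11.36 and 10.94 in the low-fat MSX arrays and 12.37, 11.09 and 12.26 in the high-fat MSX arrays. High-fat MSX 2 lay among the low-fat MSX arrays while the others of its group lay above them, and the difference was 0.59. Fgf21, the fasting hormone of the liver, had a difference of 0.49, also with overlap. The count of 3 was 2 without low-fat MSX 3 or without high-fat MSX 1 and 5 without low-fat MSX 2. The list median was 0.094 without low-fat MSX 3 and 0.33 without low-fat MSX 2.

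Cholesterol synthesis genes were measured for 16 of 20 listed, 11 with the higher mean in high-fat MSX, against 50.5% of all genes, and a median of 0.13. That median was 0.0121 without low-fat MSX 3, 0.0402 without high-fat MSX 1 and 0.21 without high-fat MSX 3. Cyp51, the lanosterol demethylase, read 7.28, 7.33 and 7.10 in the low-fat MSX arrays and 7.85, 7.69 and 7.58 in the high-fat MSX arrays, a difference of 0.47 (SE 0.12, limma adjusted p = 0.944). Hmgcs1, which makes the precursor of mevalonate, read 9.09, 9.07 and 8.30 in the low-fat MSX arrays and 9.71, 9.33 and 9.56 in the high-fat MSX arrays, a difference of 0.72 (SE 0.20, limma adjusted p = 0.977). Both had all high-fat MSX arrays above the low-fat MSX arrays, and low-fat MSX 3 was the lowest array for each. Sqle, the squalene epoxidase, read 6.43, 6.40 and 5.84 in the low-fat MSX arrays and 7.13, 6.42 and 6.74 in the high-fat MSX arrays, a difference of 0.54 (SE 0.21, limma adjusted p = 0.999), and its groups overlapped through high-fat MSX 2.

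Mvd, which decarboxylates mevalonate diphosphate, differed by 0.35 and Msmo1, a sterol methyl oxidase, by 0.54, each without overlap. These 5 genes had an unadjusted p under 0.05, where 2.39% of all genes had such a p and a higher mean. Without low-fat MSX 3 the list had 3 such genes and 2 with a lower mean, and without high-fat MSX 1 it had 2 and 1. Without extract the list median was 0.44 with 10 of 16 genes at an unadjusted p under 0.05 and the higher mean on the high-fat diet, against 3.44% of all genes. There Cyp51 differed by 1.29 and Sqle by 1.88, both past the adjusted threshold at 0.000893 and 0.00519. The difference between the diet differences was −0.83 for Cyp51 and −1.34 for Sqle, with limma adjusted p = 0.664 for each, which misses the threshold.

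**Figure D4:**
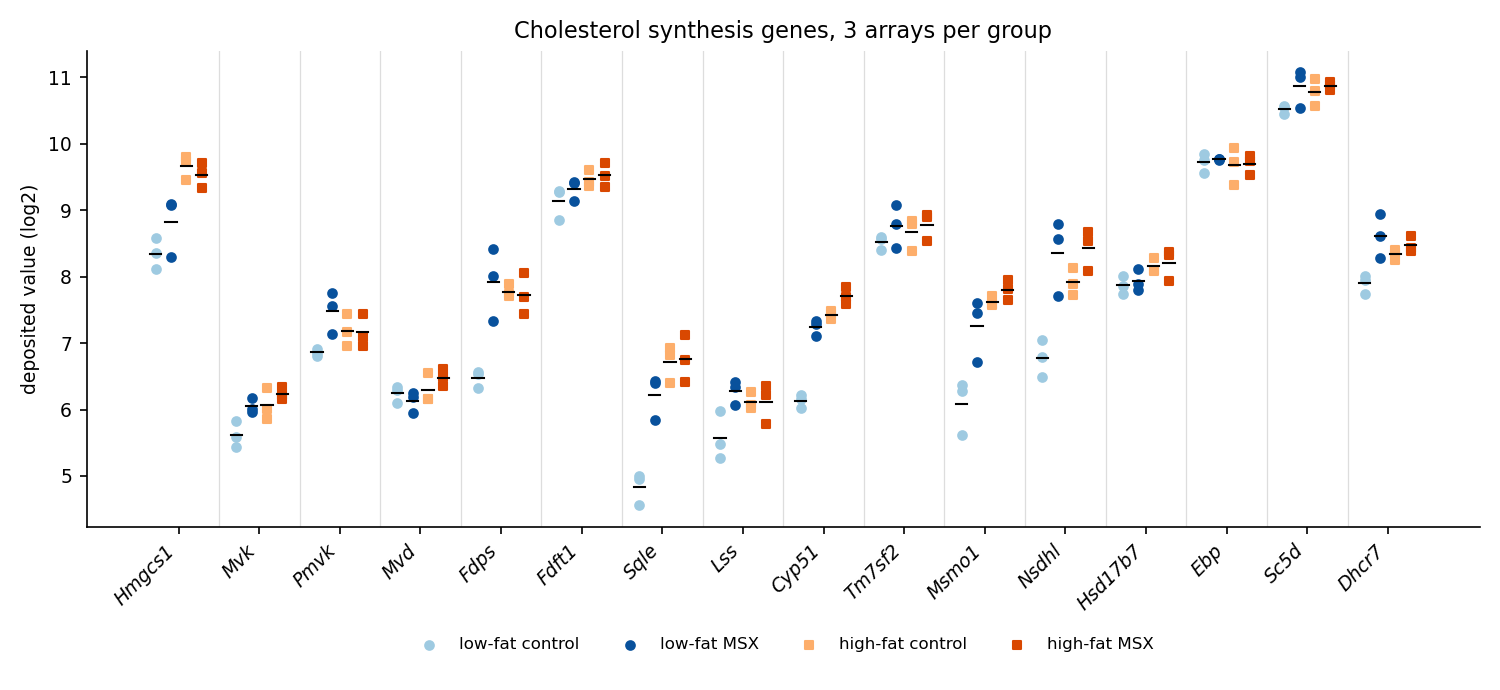
Deposited log2 value (vertical axis) of the 16 measured cholesterol synthesis genes (horizontal axis) in each of the 12 arrays, with bars at group means. For Cyp51 and Sqle the low-fat control arrays (light circles) lie below the arrays of the other 3 groups, and the high-fat MSX arrays (dark squares) of Cyp51 lie above all others.

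Among the feedback genes of sterol sensing the median over 11 measured genes was 0.00. Insig1, which holds SREBP in the endoplasmic reticulum and is itself a target, read 10.57, 10.72 and 10.0 in the low-fat MSX arrays and 10.71, 10.40 and 10.38 in the high-fat MSX arrays, a difference of 0.07 with overlapping groups, against 1.02 without extract. Low-fat MSX 3 was again the lowest array. The sign for Insig1 with extract turned without that array and without high-fat MSX 1.

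The gene with the largest difference among the 3 at the lowest adjusted p was Egr1, a zinc finger factor of the immediate early class, which cells switch on within minutes of a stimulus. It read 5.03, 6.36 and 5.10 in the low-fat MSX arrays and 7.74, 6.93 and 7.33 in the high-fat MSX arrays. The group means were 5.50 ± 0.75 and 7.33 ± 0.41 (SD, n = 3 each), with no overlap, and the difference was 1.84 (SE 0.33, limma adjusted p = 0.466) or 3.57-fold. Low-fat MSX 2 was the highest of its group, and without it the difference was 2.27 with a limma adjusted p of 0.0341, past the threshold. Under the other 22 alternatives, each other left-out array among them, the adjusted p of Egr1 lay between 0.284 and 0.9997.

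Nr4a1 and Junb shared 2 high arrays. Nr4a1, an orphan nuclear receptor, read 5.47, 6.04 and 5.35 in the low-fat MSX arrays and 7.94, 5.28 and 7.36 in the high-fat MSX arrays, a difference of 1.24 (SE 0.53, limma adjusted p = 0.999). High-fat MSX 1 and 3 were high and high-fat MSX 2 was the lowest of all 6 arrays. Junb, a subunit of AP-1, read 6.98, 7.40 and 6.65 in the low-fat MSX arrays and 7.79, 7.17 and 8.10 in the high-fat MSX arrays, a difference of 0.67 with the same arrays high and with overlap. Myc, the growth regulator, read 6.14, 6.47 and 7.50 in the low-fat MSX arrays and 5.71, 5.86 and 5.67 in the high-fat MSX arrays, a difference of −0.96 without overlap and in the opposite direction.

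The list level over 17 immediate early genes was −0.22, 0.07 and −0.32 in low-fat MSX and 0.46, −0.34 and 0.52 in high-fat MSX, and high-fat MSX 2 was the lowest of the 6. The count at an unadjusted p under 0.05 with a higher mean was 3 of 17, against 2.39% of all genes. It was 7 without low-fat MSX 2 or high-fat MSX 2 and 1 without low-fat MSX 3 or high-fat MSX 3. Handling of the tissue before extraction was not tested as a cause of these array differences.

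**Figure D5:**
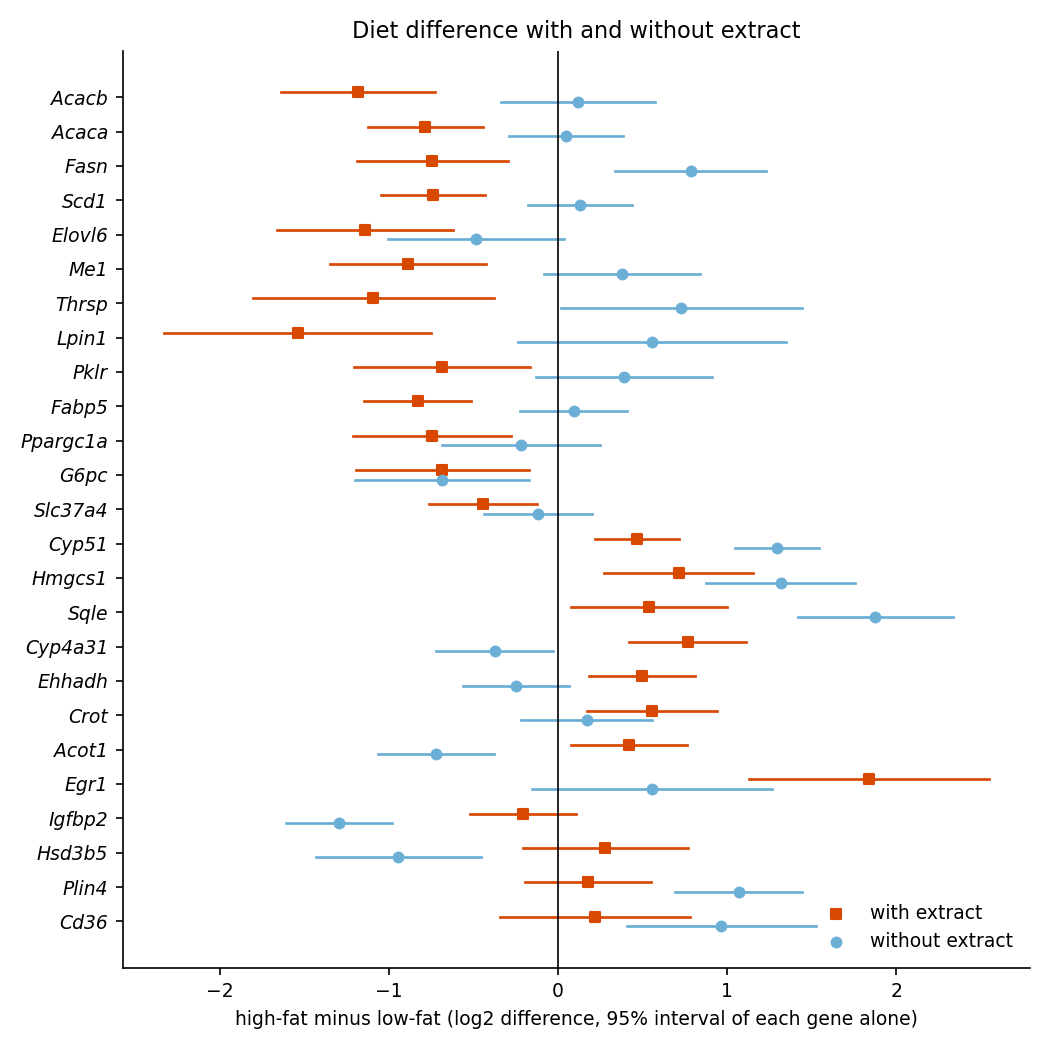
Log2 difference of high-fat minus low-fat (horizontal axis) with its 95% interval for 25 genes (vertical axis), with extract (squares) and without (circles). Fatty acid synthesis genes from Acacb to Thrsp lie left of 0 with extract, and Igfbp2, Plin4 and Cd36 have intervals that include 0 with extract and exclude it without.

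Antioxidant and conjugation genes under NRF2 had 4 of 30 measured genes with an unadjusted p under 0.05 and a higher mean, against 2.39% of all genes. There was 1 with a lower mean, against 2.18%, and the median was 0.04. Osgin1, an oxidative stress response gene, read 9.41, 8.74 and 9.58 in the low-fat MSX arrays and 10.17, 10.18 and 9.77 in the high-fat MSX arrays, a difference of 0.79 (SE 0.20, limma adjusted p = 0.944) with no overlap. Aox1, an aldehyde oxidase, differed by 0.42. Gstm3, a glutathione transferase, read 6.51, 7.07 and 6.86 in the low-fat MSX arrays and 5.92, 5.74 and 5.82 in the high-fat MSX arrays, a difference of −0.98 (SE 0.36, limma adjusted p = 0.999), with every high-fat MSX array below. Without extract Gstm3 differed by 1.37, and the difference between these was −2.36 (limma adjusted p = 0.664). The count of 4 was 2 without low-fat MSX 3.

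Of the xenobiotic receptor genes, Cyp3a11, a main drug-metabolising cytochrome of mouse liver, read 9.51, 9.56 and 9.42 in the low-fat MSX arrays and 9.04, 8.90 and 8.69 in the high-fat MSX arrays, a difference of −0.62 (SE 0.19, limma adjusted p = 0.999). Nr1i2, which encodes its regulator PXR, differed by −0.32. In both the groups did not overlap and high-fat MSX was lower. Aldh1a1, an aldehyde dehydrogenase, read 12.14, 11.96 and 11.71 in the low-fat MSX arrays and 12.31, 12.29 and 12.26 in the high-fat MSX arrays, a difference of 0.35 (SE 0.12, limma adjusted p = 0.999) with high-fat MSX above and no overlap. Cyp2c65, a cytochrome whose 6 values lay between 1.32 and 2.63, differed by 0.67 the same way (0.41 without low-fat MSX 2). The list of CAR and PXR targets as a whole had a median of −0.09 over 18 genes. At an unadjusted p under 0.05 there were 2 with a higher mean, against 2.39% of all genes, and 2 with a lower, against 2.18%. Left-out arrays changed these counts to 1 to 3 with a higher and 1 to 4 with a lower mean.

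Urea cycle enzymes included some of the lower values, though for Otc and Arg1 of the cycle the arrays of the diets overlapped. Ass1, which joins citrulline and aspartate, read 6.63, 7.03 and 6.87 in the low-fat MSX arrays and 6.22, 6.20 and 6.45 in the high-fat MSX arrays, a difference of −0.55 (SE 0.18, limma adjusted p = 0.999), and Asl, the next enzyme, differed by −0.42. Got1, the cytosolic aspartate aminotransferase, read 9.98, 10.69 and 10.69 in the low-fat MSX arrays and 10.06, 9.83 and 9.62 in the high-fat MSX arrays, a difference of −0.61 (SE 0.20, limma adjusted p = 0.999), with low-fat MSX 1 inside the range of high-fat MSX. Cps1, the entry enzyme of the cycle, differed by −0.26 without overlap. Over 22 genes of amino acid catabolism the median was −0.03, 5 had high-fat MSX below without overlap, against 4.76% of all genes, and 1 had it above, against 4.68%.

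Beyond these lists, some genes of lowest p had the higher mean in high-fat MSX. Snora34, a small nucleolar RNA that guides pseudouridylation, read 7.55, 8.36 and 8.0 in the low-fat MSX arrays and 9.11, 8.97 and 8.85 in the high-fat MSX arrays, a difference of 1.01 (SE 0.19, limma adjusted p = 0.53). Klra9, a receptor gene of natural killer cells from a family of near-identical copies, read 2.65, 1.82 and 2.11 in the low-fat MSX arrays and 2.96, 3.29 and 3.63 in the high-fat MSX arrays, a difference of 1.10 (SE 0.22, limma adjusted p = 0.576). All 3 high-fat MSX arrays lay above the low-fat MSX arrays in both. Cd200, a membrane glycoprotein that restrains macrophages, read 4.12, 4.43 and 3.76 in the low-fat MSX arrays and 4.91, 4.83 and 4.72 in the high-fat MSX arrays, a difference of 0.72 (SE 0.16, limma adjusted p = 0.944). Qpct, a glutaminyl cyclase, read 7.03, 6.85 and 6.93 in the low-fat MSX arrays and 7.25, 7.59 and 7.62 in the high-fat MSX arrays, a difference of 0.55 (SE 0.13, limma adjusted p = 0.944). The same held for these genes. The values printed for Klra9 and Cd200 lay below the median of all genes, 5.10, and whether they exceed background was not analysed.

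With high-fat MSX lower, Snord90, another small nucleolar RNA, read 3.28, 3.17 and 2.96 in the low-fat MSX arrays and 2.70, 2.23 and 2.21 in the high-fat MSX arrays, a difference of −0.76 (SE 0.14, limma adjusted p = 0.53). Nrg4, a growth factor of the neuregulin family, read 6.39, 6.69 and 6.51 in the low-fat MSX arrays and 5.80, 5.66 and 6.26 in the high-fat MSX arrays, a difference of −0.62 (SE 0.16, limma adjusted p = 0.944). Tbc1d8, a gene of the Rab GTPase activator family, read 6.54, 6.95 and 7.23 in the low-fat MSX arrays and 6.23, 6.31 and 6.19 in the high-fat MSX arrays, a difference of −0.66 (SE 0.16, limma adjusted p = 0.944). The low-fat MSX arrays lay above the high-fat MSX arrays in each. Snord90 also lay below the median of all genes.

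The genes past the threshold for the same diet contrast without extract were 4 of 22180 (0.018%), Cyp51, Sqle, Igfbp2 and Themis. Igfbp2, a binding protein of insulin-like growth factors, read 10.18, 10.15 and 10.73 in the low-fat MSX arrays and 10.13, 10.16 and 10.15 in the high-fat MSX arrays, a difference of −0.21 (SE 0.15, limma adjusted p = 0.999) with a 95% interval of −0.52 to 0.11. Without extract it read 10.91, 11.12 and 11.06 in the low-fat control arrays and 9.74, 9.66 and 9.81 in the high-fat control arrays, a difference of −1.29. The difference between the diet differences was 1.09 (SE 0.21, limma adjusted p = 0.664), which misses the threshold. Themis, a T cell signalling gene, read 4.47, 4.75 and 4.15 in the low-fat MSX arrays and 5.17, 4.82 and 4.98 in the high-fat MSX arrays, a difference of 0.53 (SE 0.20, limma adjusted p = 0.999), against 1.49 without extract. High-fat MSX lay above low-fat MSX without overlap.

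Genes of lipid storage ran in both directions with extract. Over 28 measured genes of triglyceride assembly, storage and lipolysis the differences lay between −1.54 (Lpin1) and 0.39, with a median of 0.02. At an unadjusted p under 0.05 there were 2 with a lower mean, against 2.18% of all genes, and 2 with a higher, against 2.39%. Each count was 1 to 3 without 1 array. Plin4, a lipid droplet coat protein, read 5.75, 6.22 and 5.67 in the low-fat MSX arrays and 6.0, 6.02 and 6.15 in the high-fat MSX arrays, a difference of 0.18 (SE 0.17, limma adjusted p = 0.999), against 1.07 without extract. Cd36, a fatty acid transporter, read 8.46, 8.85 and 7.95 in the low-fat MSX arrays and 9.12, 8.26 and 8.54 in the high-fat MSX arrays, a difference of 0.22 whose sign turned without low-fat MSX 3 or high-fat MSX 1, against 0.97 without extract. Pparg, the regulator of fat storage, differed by 0.34 with overlap.

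Male-biased liver genes, which depend on pulses of growth hormone, had a median of 0.03 over 20 genes. None had an unadjusted p under 0.05 (2 without low-fat MSX 3). The median was −0.16 without high-fat MSX 2, −0.13 without low-fat MSX 2 and 0.18 without high-fat MSX 1. Without extract the list median was −0.52, and 8 genes had an unadjusted p under 0.05 and a lower mean, against 3.34% of all genes. Hsd3b5, a steroid dehydrogenase of male liver, read 9.96, 9.57 and 10.06 in the low-fat MSX arrays and 9.80, 10.66 and 9.96 in the high-fat MSX arrays, a difference of 0.28 (SE 0.23, limma adjusted p = 0.999). The arrays overlapped and high-fat MSX 2 was the highest. Female-biased genes had a median of −0.04 over 20 genes.

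Medians of the inflammation lists were near 0 with extract. Acute phase proteins had a median of 0.05 over 23 genes and cytokines and chemokines one of −0.04 over 24, against medians of 0.36 and 0.38 without extract. With extract 18 of the 23 and 10 of the 24 had the higher mean in high-fat MSX, against 50.5% of all genes. The acute phase median was −0.04 without low-fat MSX 2 or high-fat MSX 3 and 0.16 without high-fat MSX 2. The cytokine and chemokine median was 0.05 without low-fat MSX 1. Lcn2, an iron-binding acute phase protein, read 7.87, 7.20 and 8.82 in the low-fat MSX arrays and 7.90, 7.66 and 9.74 in the high-fat MSX arrays, and array 3 was the highest of each group. Its difference of 0.47 turned in sign without high-fat MSX 3. Cxcl1, a neutrophil attractant, read 5.71, 6.20 and 5.28 in the low-fat MSX arrays and 6.51, 5.74 and 7.06 in the high-fat MSX arrays, a difference of 0.70 with overlap and with high-fat MSX 1 and 3 high.

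Interferon response genes had a median of 0.01 over 22 genes. At an unadjusted p under 0.05, 4 of them had a higher mean, against 2.39% of all genes, and 1 a lower, against 2.18%. Ifit1, an RNA-binding antiviral protein, read 6.92, 6.53 and 5.64 in the low-fat MSX arrays and 7.30, 7.32 and 6.73 in the high-fat MSX arrays, a difference of 0.75 (SE 0.29, limma adjusted p = 0.999) with overlap. Low-fat MSX 3 was the lowest array, and the count of 4 was 0 without it, without high-fat MSX 1 or without high-fat MSX 2 and 2 without low-fat MSX 2 or high-fat MSX 3. The gene with a lower mean was Bst2, a membrane protein that tethers budding virus particles, which read 10.34, 10.35 and 10.62 in the low-fat MSX arrays and 9.86, 10.27 and 10.07 in the high-fat MSX arrays, a difference of −0.37 (SE 0.15, limma adjusted p = 0.999) with no overlap.

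Cell type markers were set beside these values. Stellate cell and matrix genes had the lower mean in high-fat MSX for 16 of 19, against 49.5% of all genes, and a median of −0.22. At an unadjusted p under 0.05 there was 1 with a lower mean (0 to 3 without 1 array), against 2.18%. Without extract the median was 0.35, with 17 of the 19 above 0. The summed level (log2 of the summed linear values) was 11.8 to 12.0 in low-fat MSX and 11.6 to 11.9 in high-fat MSX. Col1a2, a chain of collagen I, read 6.36, 6.24 and 6.66 in the low-fat MSX arrays and 6.20, 5.39 and 5.86 in the high-fat MSX arrays, a difference of −0.60 (SE 0.28, limma adjusted p = 0.999), with high-fat MSX below each low-fat MSX array. A second, dimmer probe set of Col1a2 differed by −0.17. The median of the list with extract was −0.12 without high-fat MSX 3. Summed levels of macrophage and Kupffer cell markers were 11.5 to 11.9 in low-fat MSX and 11.7 to 11.9 in high-fat MSX, and those of sinusoidal endothelial markers 12.1 to 12.4 and 12.2 to 12.4. Those of hepatocyte markers were 16.3 to 16.4 in low-fat MSX and 16.3 to 16.4 in high-fat MSX. The part of cell composition in the gene values above was not tested.

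Of the zonal genes, pericentral ones had a median of 0.06 over 12 genes and periportal ones of 0.02 over 10. The pericentral genes had 2 at an unadjusted p under 0.05 with a higher mean, against 2.39% of all genes (0 without high-fat MSX 3). The periportal genes had 3 with a lower mean, against 2.18% (1 without low-fat MSX 2 or low-fat MSX 3). For 4 of the 10, Ass1, Asl, Cps1 and Pck1, high-fat MSX lay below without overlap, against 4.76% of all genes. The periportal median was −0.10 without high-fat MSX 1. Axin2, a Wnt target of pericentral cells, read 6.12, 5.91 and 6.21 in the low-fat MSX arrays and 6.33, 6.42 and 6.54 in the high-fat MSX arrays, a difference of 0.35 (SE 0.13, limma adjusted p = 0.999). Lect2, a secreted hepatocyte protein, differed by 0.34, and neither gene overlapped between the groups. The second probe set of Axin2 differed by −0.03, so that the probe sets of this gene disagreed.

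Single arrays moved part of the differences above by over 1.5 times. Without low-fat MSX 3, the array apart on the first component, the difference was 0.31 for Crot, 0.31 for Vnn1 and 0.25 for Fgf21 among the PPAR alpha genes. In cholesterol synthesis it was 0.45 for Hmgcs1, 0.27 for Msmo1 and 0.35 for Sqle. It was also −0.43 for G6pc, 0.39 for Ifit1, −0.56 for Myc, 0.0712 for Plin4, −0.0172 for Igfbp2 and −0.53 for Acss2. The sign was kept in each of these 12 genes.

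Without low-fat MSX 2 the difference was −0.42 for Pklr, −0.25 for Pnpla3, −0.24 for Fads1, −0.16 for Acss2, 0.35 for Plin4 and 0.13 for Hsd3b5. Without high-fat MSX 2 it was 2.03 for Nr4a1, 1.0 for Cyp4a14, −0.23 for Acly, −0.39 for Col1a2 and 0.0216 for Hsd3b5. Without high-fat MSX 1 it was 0.70 for Nr4a1, 0.36 for Cyp4a14, 0.36 for Sqle, 0.45 for Hsd3b5 and 0.13 for Pparg. The difference of Plin4 was 0.11 without low-fat MSX 1. Without high-fat MSX 3 the difference was −0.17 for Cps1 and 0.39 for Cxcl1.

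Across all 22180 genes the diet differences with extract and those without, which come from different arrays, correlated at a Pearson r of 0.051. This describes these arrays across genes, which are not independent replicates. The standard deviation of the differences over genes was 0.18 with extract and 0.21 without, beside a median SE of 0.15 with extract. Error of that size lowers a correlation across genes, so that this r does not decide whether the diet effects are alike. More than 1 from 0 lay 56 genes without extract and 15 with it.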

How the data were processed

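Expression was deposited by the authors on a log2 scale, 1 value per probe set and array. The submitters' processing notes name the Transcriptome Analysis Console, and the sources used here do not give its version, normalization or summarization. The values span 0.714 to 14.1 and were taken as they stood.

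Of 41345 probe sets, the platform annotation gave 23521 with 1 symbol, 1814 with several and 16010 were not listed there. A GRCm38.p6 gene table held the Entrez identifiers of 23328 of them and changed 0 symbols. The probe set of highest mean stood for each of 22180 genes, 1082 of which had more than 1, with no filter on dim genes.

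The test was limma 3.58.1 (R 4.3.3), two-sided, with lmFit, contrasts.fit and default eBayes, on 4 group means over all 12 arrays, with 8 residual and 5.18 prior degrees of freedom, and Benjamini-Hochberg adjustment over 22180 genes in each of 3 contrasts. SE is the moderated standard error, and 95% intervals are those of single genes. The procedure was tested on simulated data.

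Of 740 genes in 41 lists 663 were measured. Lists were described by counts and medians, with no test of a list. The comparison, the lists and the rule for named genes were chosen with earlier results of these data known. The rule named the 15 genes per direction of lowest p, without provisional names, the 3 genes of lowest p in each list and in each direction of the difference of the diet effects, the genes past the threshold without extract and a panel of 31 genes, of which 25 were measured. Part of these is printed. Mlxipl, Nr1h3, Slc25a1, Acss2, Mid1ip1, Fads1, Elovl2, Fbp1, Gys2, Slc25a20, Pex11a, Mvd, Msmo1, Nr4a1, Nr1i2, Otc and Arg1 lie outside the rule and were chosen after their values were seen.

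The alternatives were other normalization, probe set, filter and moderation settings, array weights, only the 6 MSX arrays, a replicate block and leaving out each array. The labels give no batch or date. Promoter motifs, which were to be read for genes past the threshold, were not analysed, since no gene passed.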

Additional observations from a re-analysis of the deposited data

How the results depend on the processing

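The count of 0 genes between high-fat MSX and low-fat MSX was the same under 22 of 23 alternatives and was 1 (Egr1, limma adjusted p = 0.0341, difference 2.27) without low-fat MSX replicate 2, so that leaving out 1 array at a time gave 0 to 1. With the replicate block it was 0, with a lowest adjusted p of 0.559. Deviations of same-numbered arrays from their group means correlated at −0.008, −0.016 and 0.055 over genes, so that numbers were not taken to pair the arrays. For the difference of the diet effects it was 0 throughout except 1 (Cyp2c39) without high-fat MSX replicate 1, a range of 0 to 1 over left-out arrays. The cause was not tested. Without extract, under alternatives added after the data were seen, the count of 4 was 11 for genes at or above the median mean, 9 for genes with a mean above 4, 1 over all probe sets, 11 with trend and robust moderation, 1 with no moderation and 1 to 7 over left-out arrays. Signs turned for Cd36, Insig1 and Lcn2, whose differences over left-out arrays ran from −0.0197 to 0.44, −0.15 to 0.21 and −0.19 to 0.90, and for genes near 0 in the fatty acid synthesis list, Mlxipl (−0.0292 to 0.13), Slc25a1 (−0.0529 to 0.10, and −0.0248 with array weights) and Mid1ip1 (−0.15 to 0.12, and 0.00459 after quantile normalization). With 3 arrays a group and no depth to count, the number of arrays sets the limit, and signal over background was not analysed here.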

Other observations

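Further lists held values not described above. Endoplasmic reticulum stress genes had the higher mean in high-fat MSX for 18 of 20, against 50.5% of all genes, with a median of 0.15. None had an unadjusted p under 0.05 (2 without low-fat MSX 3 and 1 without low-fat MSX 2), and the median without extract was 0.33. The median with extract was 0.0484 without high-fat MSX 2 and 0.0615 without low-fat MSX 3. Dnajb9, a chaperone of that compartment, read 9.25, 9.47 and 9.0 in the low-fat MSX arrays and 9.69, 9.64 and 9.50 in the high-fat MSX arrays, a difference of 0.37 (SE 0.18, limma adjusted p = 0.999), with no overlap of the groups. Circadian clock genes had a median of −0.09 over 20 genes, and Usp2, a deubiquitinase with a strong daily rhythm in liver, differed by −0.38 with overlap (−0.16 without high-fat MSX 2). Lymphocyte markers had the higher mean in high-fat MSX for 14 of 18, against 50.5% of all genes, with a median of 0.13 that was 0.0381 without high-fat MSX 2. Gzmb, a granule protease of cytotoxic cells, read 3.87, 3.97 and 3.84 in the low-fat MSX arrays and 4.03, 4.57 and 4.69 in the high-fat MSX arrays, a difference of 0.54 (SE 0.24, limma adjusted p = 0.999). These values too lay below the median of all genes, 5.10. Respiratory chain genes lay between −0.12 and 0.09 over 23 genes, the narrowest range of the lists with over 20 measured genes.

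Of the bile acid genes, Hsd3b7, a dehydrogenase of bile acid synthesis, read 10.09, 10.22 and 9.42 in the low-fat MSX arrays and 10.17, 10.44 and 10.34 in the high-fat MSX arrays, a difference of 0.41 (SE 0.18, limma adjusted p = 0.999), and low-fat MSX 3 was the lowest array. Without it the difference was 0.16. Hsd3b7 was the 1 gene of the list at an unadjusted p under 0.05 with a higher mean, against 2.39% of all genes. That count was 0 without low-fat MSX 3, high-fat MSX 2 or high-fat MSX 3 and 2 without low-fat MSX 2. The list had a median of −0.02 over 22 genes. Asns, the asparagine synthetase, read 4.93, 4.53 and 5.33 in the low-fat MSX arrays and 4.96, 6.21 and 5.57 in the high-fat MSX arrays, a difference of 0.65 with overlap, and high-fat MSX 2 was the highest array (0.33 without it). Hsd3b7 comes from the naming rule, and Asns was chosen after its values were seen.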
